A study of Mus musculus with 6 samples.

Results

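The genes described here encode the water channels, gap junction channels and lens-specific proteins of the fiber cell membrane and cytoplasm: Mip (aquaporin-0), Aqp1, Aqp5, Gja1 (connexin 43), Gja3 (connexin 46), Lim2 (the membrane protein MP20) and Grifin (a lens galectin). Every probe set annotated to 1 of these 7 genes was taken, which gave 14 of the 45037 probe sets on the arrays, 6 of them for Gja1 and 2 each for Mip and Gja3. None of the 14 carried a second gene symbol. Whole lenses came from Balb/c mice aged 2 days, and 3 samples titled as transgenic were set against 3 titled as wild-type, with 1 Affymetrix array per sample. The labels name neither the transgene nor its promoter, give no treatment, and describe 12 lenses used for each genotype without saying how they were divided, so the samples may be pools of animals. Foxe3, a forkhead factor of the lens epithelium, had a log2 value of 13.38 ± 0.045 (SD, n = 3) in the transgenic samples against 8.74 ± 0.17 (SD, n = 3) in the wild-type samples.

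The lens is an avascular organ of 1 layer of epithelial cells over a mass of elongated fiber cells that lose their organelles as they mature. Water, ions and small metabolites reach the inner fibers largely through membrane channels. Mip is the main membrane protein of the fibers and serves both as a water channel and in adhesion between fibers, while Aqp1 serves the epithelium and Aqp5 is found in epithelium and fibers. Gja1 couples the epithelial cells, Gja3 forms gap junctions of the fibers, Lim2 is needed for the fusions and junctions of fiber membranes, and Grifin binds alpha-crystallin in the fiber cytoplasm.

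The sequence just before the start of transcription is shown for the pair of genes with a called probe set, Gja3 and Aqp5, and for a pair of fiber genes without one, Mip and Lim2. Each is the 250 bases upstream of the RefSeq start on GRCm38.p6, written 5′ to 3′ on the gene's own strand, and for Gja3 the more upstream of its 2 listed starts is given. Capitals mark the Maf half-site TGCTGA on either strand, a motif of the large Maf factors of fiber cells.
Gja3 (chr14:57058031-57058280, minus strand): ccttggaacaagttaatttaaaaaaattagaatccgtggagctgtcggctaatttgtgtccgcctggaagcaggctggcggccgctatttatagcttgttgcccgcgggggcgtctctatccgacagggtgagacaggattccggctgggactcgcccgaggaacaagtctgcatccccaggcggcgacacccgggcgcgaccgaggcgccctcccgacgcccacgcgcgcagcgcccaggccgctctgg
Aqp5 (chr15:99590778-99591027, plus strand): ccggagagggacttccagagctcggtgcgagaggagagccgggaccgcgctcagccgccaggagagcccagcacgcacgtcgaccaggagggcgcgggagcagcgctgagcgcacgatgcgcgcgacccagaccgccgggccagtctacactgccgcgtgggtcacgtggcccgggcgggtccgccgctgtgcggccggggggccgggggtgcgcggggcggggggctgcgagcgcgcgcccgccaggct
Mip (chr10:128225560-128225809, plus strand): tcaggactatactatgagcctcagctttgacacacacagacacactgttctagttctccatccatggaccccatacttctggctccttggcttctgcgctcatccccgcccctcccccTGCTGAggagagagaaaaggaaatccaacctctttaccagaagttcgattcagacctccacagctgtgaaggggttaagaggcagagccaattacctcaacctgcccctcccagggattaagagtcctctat
Lim2 (chr7:43429849-43430098, plus strand): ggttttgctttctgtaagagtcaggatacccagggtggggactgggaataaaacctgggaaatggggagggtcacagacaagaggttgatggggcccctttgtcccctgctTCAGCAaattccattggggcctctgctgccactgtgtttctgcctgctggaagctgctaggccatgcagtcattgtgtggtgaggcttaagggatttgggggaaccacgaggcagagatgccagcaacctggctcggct
Mip held the half-site at bases -132 to -127 from the start and Lim2, on the other strand, at -139 to -134. Gja3 and Aqp5 held none in this window. The half-site occurred in 3 of the 8 listed upstream windows of the 7 genes, the remaining one being that of Gja1 at -157 to -152 on the other strand, and in 16.1% of 32851 RefSeq windows of the same length. No window of the 7 genes held the forkhead core TGTTTNC (17.8% of all windows), the Sox core ATTGTT (9.42%) or the heat shock element GAANNTTC (6.69%), on either strand. The window of Aqp5 was 78.4% G and C and that of Mip 52.0%. These matches describe letters only, and no binding was measured.

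Values are log2 expression values after quantile normalization, and a difference is the transgenic mean minus the wild-type mean, fitted with limma over all 45037 probe sets with Benjamini-Hochberg adjustment. A probe set is called where its adjusted p is under 0.05. Nothing states that the samples came from separate animals, so p-values cover the spread among these arrays alone, and that spread may be technical. In a whole lens, fewer cells of a type and less RNA per cell cannot be told apart. The tissue label held against its markers: the crystallin genes Cryaa and Crygs, with Bfsp2, stood at means of 12.6 to 14.5 in both genotypes. Transgenic replicate 3 stood apart in transcripts of tissues around the eye. There the skin keratins Krt5 and Krt14 stood at 10.06 and 9.63, against at most 6.39 and 5.07 in the other arrays, with muscle and fibroblast markers also high. The 14 surface epithelium markers summed to 28680 linear units in that array and to 1914 to 3009 in the other 5. Transgenic replicate 2 was highest in the 10 pigment and ciliary epithelium markers. They summed to 5693 linear units there and to 2179 to 3100 in the other 5.

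Among the 14 probe sets, 2 were called, both lower in transgenic lenses, and they belonged to Gja3 and Aqp5. Over all probe sets 3.68% were called, 1.47% higher and 2.21% lower (661 and 995, or 470 and 1297 where arrays were centred to 1 median instead). The share of the members was therefore above that of the array, but it rested on 2 probe sets, and 1 of these lay at the threshold. At an unadjusted p under 0.05 there were 7 of the 14, against 21% of all probe sets. These belonged to Gja1, Gja3, Aqp5 and Grifin alone, and probe sets of the same gene are not separate members. The groups did not overlap in 5 of the 14, against 27% of all probe sets, which is a similar share. Only the brightest probe set of each of 18193 genes was tested in a further fit. There 0 of the 7 genes were called, against 4.55% of all genes (1.93% higher and 2.61% lower). An unadjusted p under 0.05 was reached by 3 of the 7, against 22.4% of all genes. With 1 array left out, between 0 and 4 of the 14 were called. None was left without transgenic replicate 2, wild-type replicate 2 or wild-type replicate 3, and 1 was called without transgenic replicate 1 or 3. There were 4 without wild-type replicate 1, which include 3 of Gja1.

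**Figure D1:**
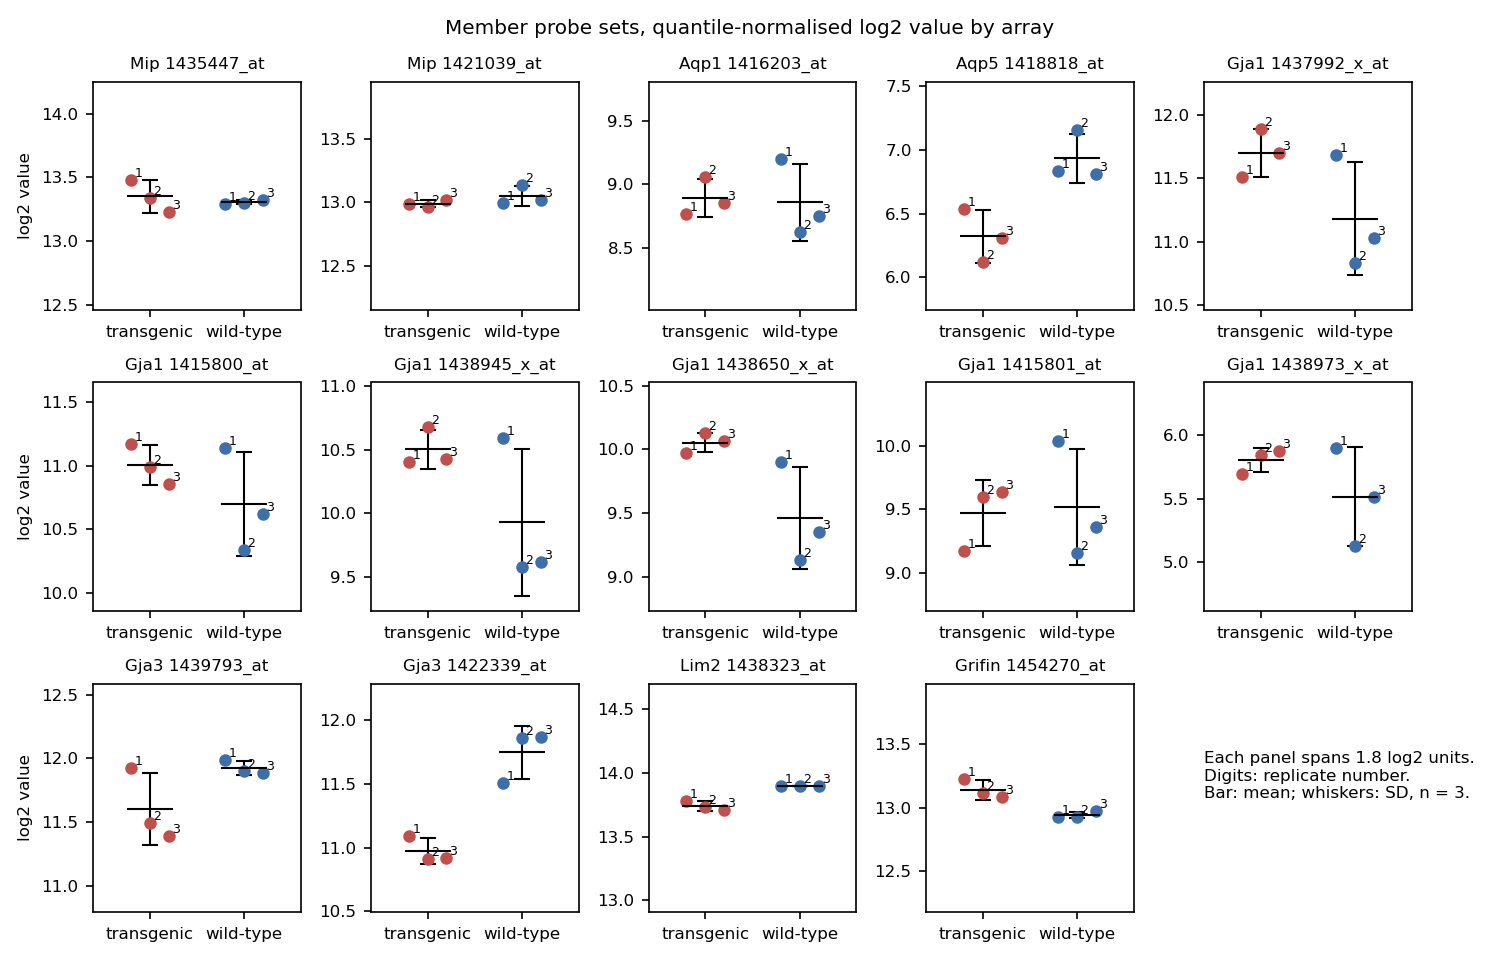
Quantile-normalised log2 value of each of the 14 probe sets in the 3 transgenic (red) and 3 wild-type (blue) samples, with replicate numbers beside the points, the mean as a bar and the SD as whiskers. The groups are apart for Gja3 1422339_at and Aqp5, and by a smaller step for Lim2 and Grifin, while wild-type replicate 1 is the highest of its group for all 6 Gja1 probe sets.

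Of the gap junction genes, Gja3 was lower in transgenic lenses by 1 of its 2 probe sets. Probe set 1422339_at, annotated to a RefSeq transcript, read 11.09, 10.91 and 10.92 in the 3 transgenic arrays and 11.51, 11.87 and 11.87 in the 3 wild-type arrays. Every transgenic value lay under every wild-type value, and wild-type replicate 1 was the nearest to them. The difference was -0.77 ± 0.12 (SE), a 1.71-fold lower value (95% interval of the difference -1.05 to -0.50; limma adjusted p = 0.0138). The other probe set, 1439793_at, which is the brighter, read 11.92, 11.49 and 11.39 in transgenic and 11.99, 11.90 and 11.88 in wild-type arrays. Here transgenic replicate 1 lay among the wild-type values and only the other transgenic arrays were lower. Its difference of -0.32 ± 0.14 did not pass (95% interval -0.64 to -0.01; limma adjusted p = 0.232). Whether the pair of probe sets differ from each other was not tested. The call of 1422339_at was kept when wild-type replicate 1, transgenic replicate 1 or transgenic replicate 3 was left out (-0.75 and adjusted p = 0.0371 in limma without the last of these, the array with skin transcripts). It was lost without transgenic replicate 2 or without wild-type replicate 2 or 3. The adjusted p of limma was at most 0.0684 in these fits and the difference ran from -0.90 to -0.71 over all 6. With all arrays kept 1422339_at did not pass without moderation of the variances (adjusted p = 0.130). It also did not pass with the replicate number as a block (limma adjusted p = 0.0535).

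Gja1, the connexin of the epithelium, had 5 of its 6 probe sets above 0 and none called. The brightest, 1437992_x_at, read 11.51, 11.89 and 11.70 in transgenic and 11.68, 10.83 and 11.03 in wild-type arrays. Wild-type replicate 1 lay among the transgenic values, and the other wild-type arrays were lower. The difference was 0.52 ± 0.21 (SE; 95% interval 0.04 to 0.99; limma adjusted p = 0.203). Probe set 1438650_x_at read 9.97, 10.13 and 10.06 against 9.90, 9.13 and 9.35, so that its groups did not overlap, by a margin of under 0.1 between transgenic replicate 1 and wild-type replicate 1. Its difference was 0.59 ± 0.18 (limma adjusted p = 0.109). Probe set 1438945_x_at differed by 0.58, 1415800_at by 0.30 and the dim 1438973_x_at by 0.29.

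The sixth Gja1 probe set, 1415801_at, went the other way by -0.049 ± 0.22, with 9.17, 9.60 and 9.64 in transgenic and 10.03, 9.16 and 9.36 in wild-type arrays. It is annotated to the same accession as 1415800_at. In all 6 probe sets wild-type replicate 1 was the highest of its group, by 0.58 to 1.00 above the mean of the other wild-type arrays. Without that array 3 of the 6 were called higher: 1437992_x_at at 0.77 (limma adjusted p = 0.0338), 1438650_x_at at 0.82 (0.0125) and 1438945_x_at at 0.91 (0.0103). In that smaller fit 2.8% of all probe sets were called, 0.884% higher and 1.92% lower. Leaving out any of the other arrays gave no call of Gja1. A set of 4 of the probe sets, including these, carries the suffix x, which Affymetrix gives to sets with probes that may also match other transcripts.

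**Figure D2:**
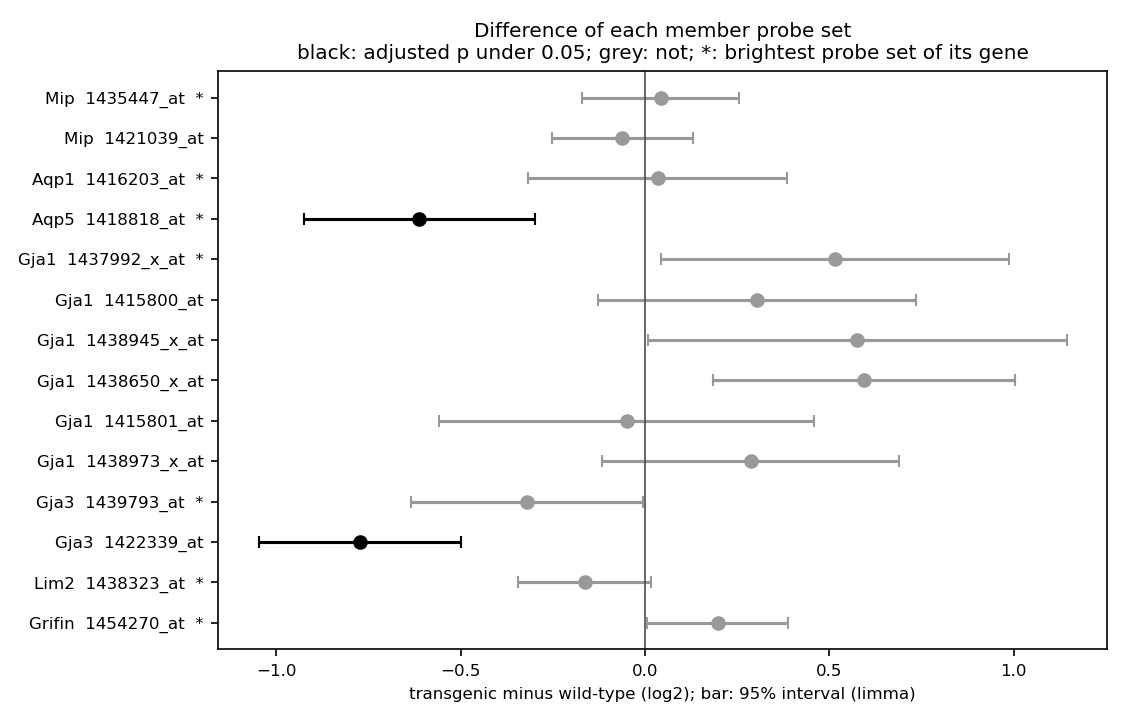
Difference between transgenic and wild-type lenses on the log2 scale for each of the 14 probe sets, with 95% intervals from limma. The intervals of Gja3 1422339_at and Aqp5 lie below 0 and are drawn in black as called, while those of Mip, Lim2 and Aqp1 include 0.

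Wild-type replicate 1 was also the highest array for Aqp1, the water channel of the lens epithelium and of capillary endothelium and red cells. Aqp1 read 8.77, 9.06 and 8.85 in transgenic and 9.20, 8.62 and 8.76 in wild-type arrays, and the groups overlapped. The difference was 0.03 ± 0.15 (SE; 95% interval -0.32 to 0.39; limma adjusted p = 0.928). Its sign was the opposite without quantile normalization, -0.035 in the deposited values and -0.072 with all arrays centred to 1 median. Without wild-type replicate 1 it was 0.20, which did not pass (limma adjusted p = 0.365). The 12 markers of vessel endothelium were on median 0.31 above their own means in wild-type replicate 1 and 0.27 below them in wild-type replicate 2, with 0.05, 0.06 and -0.21 in the transgenic arrays and 0.08 in wild-type replicate 3. Tek, an endothelial receptor, was the 1 gene of the list called, and it was higher in transgenic lenses by 0.49 ± 0.11 (SE; limma adjusted p = 0.0473), a call kept only without transgenic replicate 3 (highest adjusted p = 0.150). The list's summed linear level ran from 1475 to 1782 in transgenic and from 1492 to 2007 in wild-type lenses, and 10 of the 12 were below 0 in the comparison. Pecam1, a defining endothelial marker, read 6.32 in wild-type replicate 1 and 5.59 to 6.19 in the other arrays. The list holds the vessel connexins Gja4 and Gja5. The 10 macrophage markers were also highest in wild-type replicate 1, at a median of 0.26, and lowest in wild-type replicate 2, at -0.30. The 10 pigment and ciliary epithelium markers were highest in transgenic replicate 2, at a median of 0.52, and lowest in transgenic replicate 1, at -0.46. The part of any of these cells in the levels of Gja1 and Aqp1 was not tested.

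**Figure D3:**
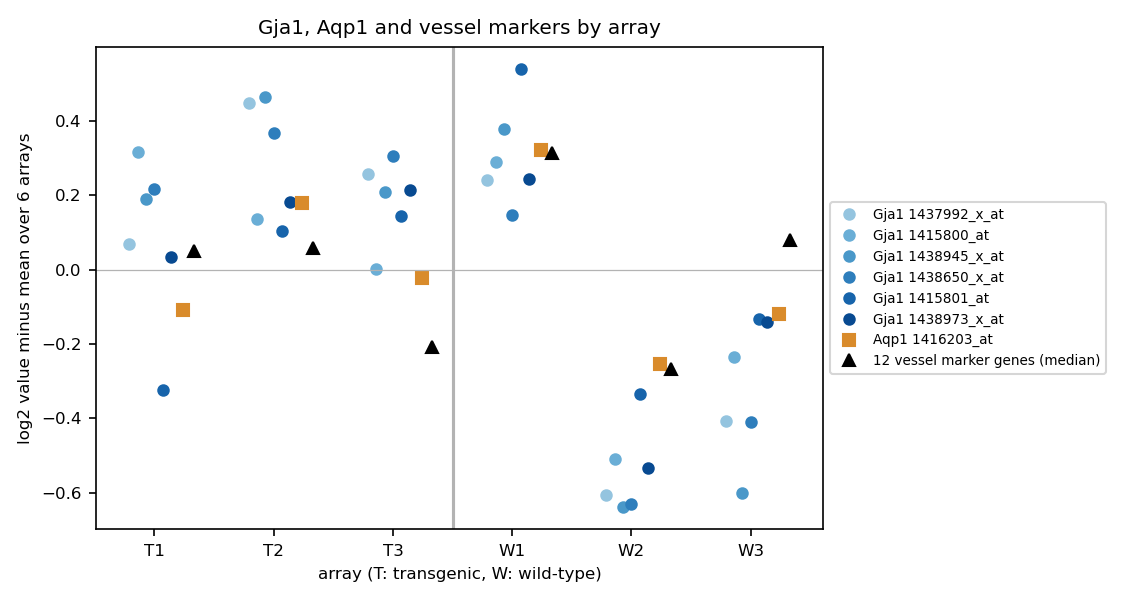
Log2 value minus the mean over the 6 arrays for the 6 Gja1 probe sets (blue), for Aqp1 (orange) and for the median of 12 vessel marker genes (black), by array, with points set slightly apart. Wild-type replicate 1 is high and wild-type replicate 2 low in all of them, and the transgenic arrays lie at or above 0 for all Gja1 probe sets but 1415801_at in replicate 1.

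Aqp5, a water channel of secretory epithelia, cornea and lens, was lower in transgenic lenses. It read 6.53, 6.12 and 6.31 in transgenic and 6.83, 7.16 and 6.81 in wild-type arrays, with no overlap between the groups. The difference was -0.61 ± 0.14 (SE; 95% interval -0.92 to -0.30), a 1.53-fold lower value, which passed by a narrow margin (limma adjusted p = 0.0497). Aqp5 has a single probe set here. With all arrays kept, Aqp5 did not pass without moderation of the variances (adjusted p = 0.208) or with 1 probe set a gene (adjusted p = 0.0522). It also did not pass with the replicate number as a block (limma adjusted p = 0.107). Its call was lost with any 1 of the 6 arrays left out (limma adjusted p from 0.0530 to 0.153) while its difference stayed between -0.72 and -0.50, with -0.61 (adjusted p = 0.0934) without transgenic replicate 3. Aqp5 was not highest in transgenic replicate 3, the array with skin transcripts. Krt12, the defining keratin of the cornea, read 5.08 in that array and 4.13 to 4.50 in the others, below the median of all probe sets of 5.34.

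Mip, the most abundant membrane protein of the fibers, did not differ between genotypes beyond the spread of the arrays. Probe set 1435447_at read 13.48, 13.34 and 13.23 in transgenic and 13.29, 13.30 and 13.32 in wild-type arrays. The wild-type values lay within the transgenic range. The difference was 0.04 ± 0.09 (SE; 95% interval -0.17 to 0.26; limma adjusted p = 0.833). Probe set 1421039_at read 12.98, 12.96 and 13.02 against 13.00, 13.14 and 13.02, a difference of -0.06 ± 0.08 (95% interval -0.25 to 0.13; limma adjusted p = 0.721). Both intervals leave room for changes of a size under 0.3 on this scale.

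Lim2 and Grifin differed little, with opposite signs and no call. Lim2 read 13.78, 13.73 and 13.71 in transgenic lenses, and 13.90 in all 3 wild-type arrays, where quantile normalization had set the same value. As deposited, Lim2 read 13.79, 13.71 and 13.66 in transgenic and 13.88, 13.89 and 13.93 in wild-type arrays. The groups did not overlap on either scale, and the difference was -0.16 ± 0.08 (SE; 95% interval -0.34 to 0.02; limma adjusted p = 0.282). Grifin, which has lost the sugar binding of other galectins in mammals, read 13.23, 13.11 and 13.08 in transgenic and 12.93, 12.93 and 12.97 in wild-type arrays. All transgenic values were above all wild-type ones, and the difference was 0.20 ± 0.08 (SE; 95% interval 0.01 to 0.39; limma adjusted p = 0.226). Neither gene was called with any 1 array left out.

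Mean values in the top 1% of the array were found for 5 of the 14 probe sets, both of Mip, the brighter of Gja3, Lim2 and Grifin. The highest deposited value of any probe set was 14.8. Of the 451 probe sets in that top range 5.76% were called, against 3.68% of all probe sets. Whether signals near the top of the range understate a change was not tested.

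**Figure D4:**
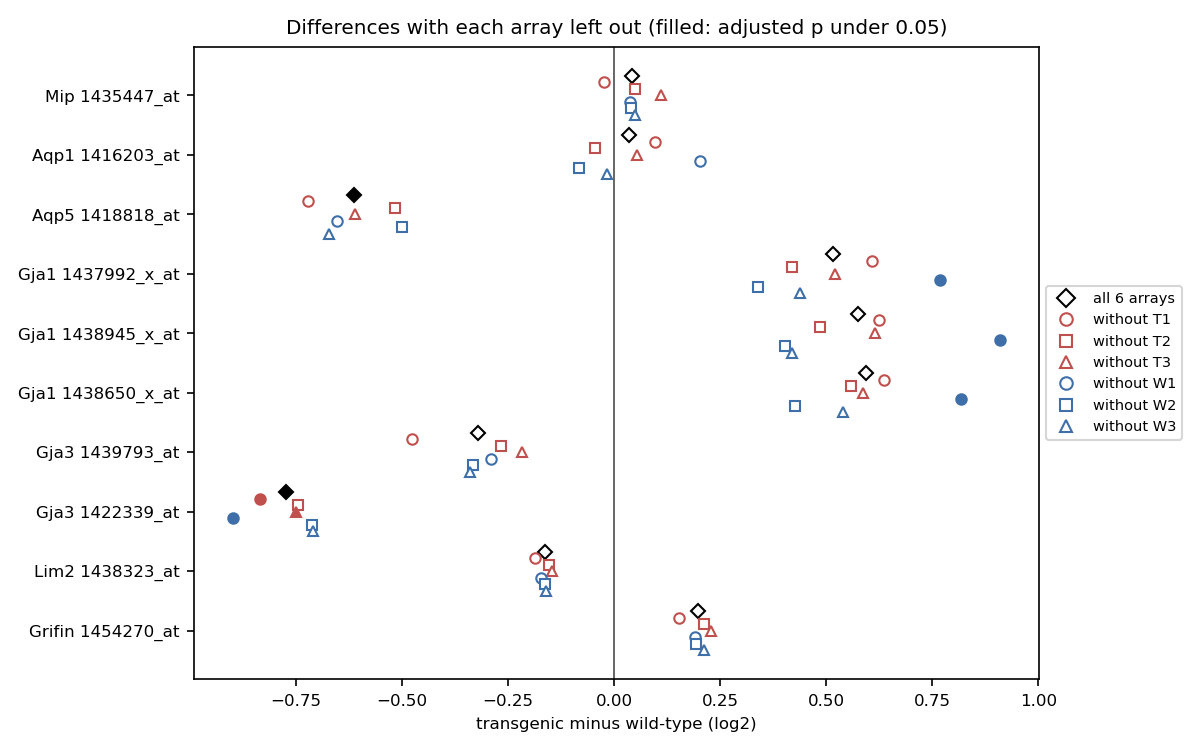
Difference between transgenic and wild-type lenses on the log2 scale with all 6 arrays (diamonds) and with each array left out, for 10 of the probe sets, with filled symbols where the adjusted p was under 0.05. The values of Gja3 1422339_at stay between -0.90 and -0.71, and the Gja1 probe sets are filled only without wild-type replicate 1.

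The rest of the connexin family gave no call. Of 23 listed connexin and pannexin genes, Gja1 and Gja3 included, 17 had a probe set with 1 gene symbol. With the brightest probe set of each, none was higher and none lower in limma. An unadjusted p under 0.05 was found for 4 of the 17, against 4156 of all 18193 genes, a similar share. The 4 were Gja1 and Gja3, described above, with Gjb1 and Gje1. The median difference was 0.01, as it was over all 18193 genes, of which 4.41% were called. Gje1, which encodes connexin 23, read 11.36, 10.68 and 10.73 in transgenic and 11.38, 11.39 and 11.42 in wild-type arrays. As in the brighter probe set of Gja3, transgenic replicate 1 lay beside the wild-type values and the other transgenic arrays were lower. The difference of -0.48 ± 0.17 (SE) did not pass (limma adjusted p = 0.154). Gjb1 differed by 0.23, Panx3 by 0.25 and the vessel connexin Gja4 by -0.09, none of them called. The skin connexin Gjb2 read 7.99 in transgenic replicate 3 and 5.03 to 5.33 in the other arrays. Gje1 was called without transgenic replicate 1, at -0.70 (limma adjusted p = 0.0167). Among the brightest probe sets, Gja1 without wild-type replicate 1 was the only other call of the family with 1 array left out. Of 10 measured genes for proteins that bind or modify connexins, none was called, with 1 at an unadjusted p under 0.05 (limma). That was Tjp1, the scaffold protein ZO-1 that binds connexin tails, at -0.54 ± 0.13 (adjusted p = 0.0627), which passed in 5 of the 8 other settings that kept all arrays, among them the deposited values at -0.57 (adjusted p = 0.0360), and without wild-type replicate 1 at -0.67 (adjusted p = 0.0255). Prkca (-0.28), Ubqln4 (0.18) and Csnk1d (-0.21) did not pass.

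Of the 12 aquaporin genes, all of them measured, 1 was higher and 1 lower, which is 16.7% against 4.41% of all genes. Their median difference was 0.09, against 0.01 over all genes. The lower one was Aqp5 and the higher one Aqp11, an intracellular aquaporin, and the share rests on this pair alone. In the fit with 1 probe set a gene, Aqp11 was called and Aqp5 was not. Aqp11 read 5.99, 6.07 and 6.05 in transgenic and 5.49, 5.35 and 5.67 in wild-type arrays, a difference of 0.53 ± 0.10 (SE; limma adjusted p = 0.0303). Other probe sets of Aqp11, both dimmer, differed by 0.31 and by less than 0.01. The Aqp11 call was kept without wild-type replicate 3 and lost without any other array (highest adjusted p = 0.115). Aqp12 (0.29), Aqp8 (-0.17) and Aqp6 (0.19) did not pass. Aqp3, a water and glycerol channel of skin, read 6.76 in transgenic replicate 3 and 5.23 to 5.50 in the others.

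**Figure D5:**
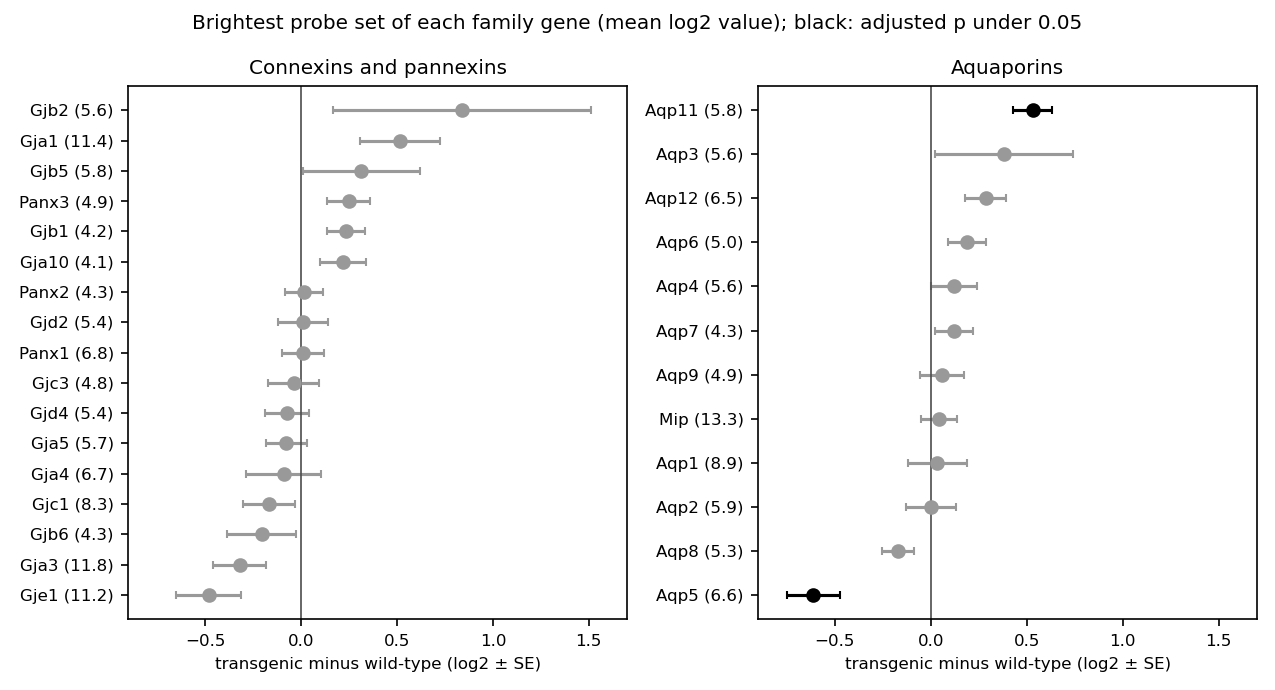
Difference between transgenic and wild-type lenses (log2, with SE) for the brightest probe set of 17 connexin and pannexin genes and of 12 aquaporin genes, with the mean log2 value in parentheses and called genes in black. Aqp11 and Aqp5 are the called genes, and Gjb2, Gjb5 and Aqp3 have wide errors, with transgenic replicate 3 highest in each.

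In a list of genes around the fiber membrane, calls were lower and none higher. Of 29 listed genes 24 were measured, of which 6 fell, none rose and 18 did not pass. That is a share of 25% called, with a median difference of -0.17. The list is of fiber membrane, junction and membrane skeleton proteins. However, 1 of the 6 falls is Birc7, which is not such a protein and raises the share. The list was also chosen with earlier results of these data known. Over all genes, by their brightest probe sets, 4.41% were called, 337 higher and 465 lower, and the median difference was 0.01. Without transgenic replicate 3 the list's median was -0.10 with 5 falls. Without moderation of the variances 1 gene fell, and it was Birc7. Markers of the neural retina lay mostly on the same side. Of 16 measured, 15 were below 0 with a median of -0.38. An unadjusted p under 0.05 in limma was found for 7 of them, against 4156 of all 18193 genes. The 1 call was Elavl4 (-0.72, limma adjusted p = 0.0107), a share of 6.25% against 4.41% of all genes. The summed linear level of these markers was 3183, 5167 and 3944 in transgenic and 6341, 5480 and 4161 in wild-type arrays, so that the groups overlapped. Crx, a defining photoreceptor marker, read 7.14 to 7.69 in transgenic and 7.17 to 7.73 in wild-type arrays. Some fiber membrane genes, such as Nrcam and Ncam1, are also expressed in neurons, and the part of retinal transcripts in the list was not tested. The list holds Mip, Gja3, Lim2 and Grifin, which are among those that did not pass by their brightest probe sets. Bfsp1, whose product filensin binds the tail of Mip, fell by 1.66 ± 0.11 (SE; limma adjusted p = 0.000279), while its partner Bfsp2 differed by -0.45 and did not pass (adjusted p = 0.0557), although it passed in 4 of the 8 other settings that kept all arrays (adjusted p from 0.0107 to 0.0445) and without wild-type replicate 1 (-0.53, adjusted p = 0.0455). Bfsp1 was also the 1 call among 5 measured genes for partners of aquaporin-0 and among 12 lens markers. Birc7, an inhibitor of apoptosis, fell by 1.61, the spectrin gene Sptbn1 by 0.85 and the adhesion gene Nrcam by 0.70. The chloride channel gene Clic5 fell by 0.74 and Epha2, an ephrin receptor of the lens, by 0.61. With 1 array left out the list had 3 to 7 falls, 3 without wild-type replicate 2. By these brightest probe sets, the call of Clic5 was lost without transgenic replicate 2 or any wild-type array. That of Nrcam was lost without wild-type replicate 2. That of Epha2 was lost without any array but wild-type replicate 1 (highest limma adjusted p = 0.116). Dimmer probe sets of Clic5 differed by -1.14 (limma adjusted p = 0.00264), and by -0.50 and -0.21, which did not pass. Those of Nrcam differed by -0.70 and -0.70 (limma adjusted p = 0.0249 and 0.0127), and by -0.10, which did not pass. Those of Sptbn1 differed by -1.34, -1.25, -1.61 and -1.50, all called, and by -0.14, which did not pass. Ezr, which encodes the ezrin that links membrane proteins to actin and also binds Mip, differed by 0.35 and did not pass (adjusted p = 0.0740).

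The PMP22 and claudin family, Lim2 included, was mostly above 0, in 18 of 25 genes, against 9521 of all 18193 genes. In this list 2 were called higher and none lower, which is 8% against 4.41% of all genes, and the median was 0.16. Without transgenic replicate 3, the array with skin transcripts, the median was 0.11. The 1 call then was Perp, at 1.16 (limma adjusted p = 0.0110). Cldn3, a tight junction claudin, had means of 7.17 ± 0.17 in transgenic and 6.49 ± 0.22 in wild-type arrays (SD, n = 3 each), a difference of 0.69 ± 0.13 (SE; limma adjusted p = 0.0322). Other probe sets of Cldn3 differed by 0.05, 0.27 and 0.15. Cldn10 differed by 0.57 ± 0.11 (limma adjusted p = 0.0341) at a mean of 4.26 in wild-type lenses, below the median of all probe sets. Both calls were kept without transgenic replicate 1 and lost without any other array. Perp differed by 1.80, with 10.35 in transgenic replicate 3, and Cldn4 by 0.53, neither of them called with all arrays kept. Of 10 measured galectin genes, Grifin included, none was called, with 2 at an unadjusted p under 0.05 (limma). Lgals3 was called lower without transgenic replicate 3 (-0.87, adjusted p = 0.0233), and the skin galectin Lgals7 read 9.49 in transgenic replicate 3 and 5.22 to 5.82 in the others.

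Of 20 genes of the lens epithelium, the layer in which Gja1 and Aqp1 are best known, 3 rose, none fell and 17 did not pass, 15 being above 0 with a median of 0.11. That is 15% called against 4.41% of all genes, and over all genes 9521 of 18193 were above 0. The 15% counts Foxe3, which was 24.9-fold higher and had the smallest p of all probe sets. Whether Foxe3 is the transgene is not stated. If it is, its call was set by the design and says nothing of the epithelium. The median was 0.050 in the deposited values and 0.013 with arrays centred to 1 median. The 3 were Foxe3, which the labels do not tie to the transgene, Wls, whose product carries Wnt proteins, at 1.29, and the integrin gene Itga6 at 0.61. The call of Itga6 was kept only without wild-type replicate 3 (highest limma adjusted p = 0.108). The list's median level lay 0.11, 0.07 and 0.03 above the genes' own means in the transgenic arrays and 0.01, 0.10 and 0.07 below them in the wild-type arrays.

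The genes whose values over the 6 arrays were most like those of each member, by Pearson correlation among 12089 genes at or above the median level, are given as a description, since the 6 arrays hold 2 genotypes and many genes reach high values. For Aqp5 they were Ecpas (r = 0.998), Gpx1 (0.996) and Pan2 (0.992), and for the brighter Gja3 probe set Pnrc1 (0.994), Fbxo8 (0.992) and Rdh11 (0.988). For Lim2, whose wild-type values were tied, they were Tigd2, Megf9 and Ccng1 (each r = 0.999), all 3 of them called lower, by 0.82, 1.04 and 0.83. Grifin was nearest to Slc2a8 (0.996), Dctn3 (0.996) and Wfs1 (0.992). Gja1 was nearest to Stard8 (0.990), Ccn4 (0.986) and Dync2li1 (0.985), Aqp1 to Osbpl8 (0.981), Hpf1 (0.976) and Rfwd3 (0.976), and Mip to Sorbs3 (0.987), Dnmt3a (0.980) and H2aw (0.978). A correlation over 0.95 was reached by 236 genes for Lim2 and by 16 for Mip.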

How the data were processed

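Total RNA of 3 transgenic and 3 wild-type lens samples was hybridised to 1 Affymetrix array each, and labelled with biotin, per the labels' protocols. The deposited table holds log2 values, 1 for each probe set in each array. The scale was read from the range of 2.68 to 14.8. How the authors summarised and normalised probes is not given in the sources used here. Groups were taken from the sample titles.

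The 64 control probe sets were left out, and the other 45037 were quantile normalised because the arrays' upper quartiles differed by over 0.1. Gene symbols come from GEO's annotation of the platform and were brought up to date by identifier with RefSeq's table for GRCm38.p6 (99.4% of probe sets with 1 symbol matched). The files name no build, so no positions are given for the genes or probe sets, and the upstream windows carry their own RefSeq coordinates on GRCm38.p6. Genotypes were compared with limma 3.58.1 in R 4.3.3 (lmFit, eBayes), with Benjamini-Hochberg adjustment over all probe sets and a threshold of 0.05. The fit was tested on simulated data. Depth cannot be stated for arrays, and the 3 arrays per genotype limit the precision.

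Named genes were all probe sets of the 7 genes, up to 4 further genes with the smallest p in a family list, the 3 genes most like each member, and genes whose values differed in single arrays, chosen after their values were seen. For the lists of gap junction, aquaporin and other related genes each gene is represented by its brightest probe set with 1 symbol. The members and lists were chosen with earlier results of these data known. Alternatives were the deposited values, arrays centred to 1 median, no dim probe sets, trended robust variances, no moderation, array weights, a replicate block, 1 probe set a gene, and each array left out.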

Additional observations from a re-analysis of the deposited data

How the results depend on the processing

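The replicate numbers are shared by the genotypes, but samples with the same number did not deviate together in every pair (correlations of 0.0003, 0.12 and 0.03), so the numbers are not taken to pair the samples. With the replicate block 230 probe sets were higher, 483 lower and 0 member probe sets were called in limma, with 5 of the 14 at an unadjusted p under 0.05. Gja3 1422339_at then had an adjusted p = 0.0535 and Aqp5, at -0.61, an adjusted p = 0.107. Against 661 higher and 995 lower in the main setting, 26 and 43 were called without moderation, where 0 members were called and 4 had an unadjusted p under 0.05. There were 1063 and 1504 with array weights, and 352 and 475 with 1 probe set a gene, a smaller number of tests. In that last setting 0 of the 7 members were called in limma, with 3 at an unadjusted p under 0.05, and Aqp5 stayed at -0.61 with an adjusted p = 0.0522. Without moderation Aqp5, also -0.61, had an adjusted p = 0.208 and Gja3 1422339_at 0.130. Aqp1 was -0.035 in the deposited values and -0.072 with arrays centred to 1 median, and Gja1 1415801_at was 0.091 with array weights. Gja1 1438650_x_at passed with array weights, at 0.72. With 1 array left out, 131 to 398 probe sets were higher, 303 to 864 lower and 0 to 4 members called, with at least 3 of the 14 at an unadjusted p under 0.05 in each such fit. In these fits Aqp5 ran from -0.72 to -0.50, Gja1 from 0.34 to 0.77, Mip from -0.024 to 0.11, Aqp1 from -0.084 to 0.20 and Gja1 1415801_at from -0.23 to 0.21. By their brightest probe sets, called connexin genes numbered 0 to 1 and aquaporin genes 0 to 1 in these fits. Genes called in the fiber membrane list, Birc7 included, numbered 3 to 7. They were 6 in the main setting, 4 with the replicate block and 1, Birc7 itself, without moderation. Of 105 differences of member probe sets in the settings that kept all arrays 96 kept both their direction and their side of the threshold, and of 84 with 1 array left out 66 did. With 3 arrays a group, a change smaller than the intervals given for each gene cannot be told from none.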
